A study of Mus musculus with 72 samples.

Results

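The hearts described here came from female CB6F1/Hsd mice that received 1 whole-body exposure to 120 cGy of Cs-137 gamma rays (Cs-IR) at 100 to 120 days of age, and from sham mice of the same strain, sex and age that were placed in the holders without irradiation. All arrays titled Cs-137 irradiation, 120 cGy (5) and Cs-137 irradiation control (5) were taken, which made 10 of the 72 arrays of the series, with 1 heart per array. Both groups were collected 16 months after exposure from mice without tumors, so the comparison asks what separated the groups long after a single low-LET dose in 1 sex of 1 strain. The other arrays of the series were hearts after 40, 80 or 160 cGy Cs-IR (14 arrays) and after Si- or Ti-ion exposure with their own shams. RNA was measured on Clariom S Mouse arrays, of which 1 probe set per gene was used, and levels are given as log2 expression after quantile normalization, so that a difference of 1 is a 2-fold difference. The array counts no molecules, and the number of hearts limits the precision.

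The labels give 2 processing batches, and in both groups replicates 1 to 3 were in batch 1 and replicates 4 and 5 in batch 2. Before quantile normalization, the median deposited log2 value per array lay between 5.13 and 5.86 in Cs 120 cGy hearts and between 5.01 and 6.04 in Cs sham hearts (two-sided exact permutation test p = 0.302, smallest possible p = 0.00794), and between 75.8% and 80.5% of genes in Cs 120 cGy hearts and between 73.8% and 81.7% in Cs sham hearts were above the median negative control probe set of their array, called background here. The tissue label was borne out by the ventricular muscle markers, whose summed linear signal was 47172 to 49388 in Cs 120 cGy hearts and 47638 to 49290 in Cs sham hearts, with 0 of 11 called. The atrial markers stood apart and varied between hearts in both groups, with sham replicate 5 the most doubtful. Myl7, the atrial regulatory light chain, measured 8.75, 10.45, 10.95, 10.48 and 10.05 in Cs 120 cGy hearts, against 10.01, 10.12, 9.96, 8.38 and 4.05 in Cs sham hearts, so that sham replicate 5 was near background. Bmp10 measured 7.74, 9.69, 9.82, 11.16 and 3.43 in Cs 120 cGy hearts, against 4.51, 3.72, 9.92, 3.81 and 3.72 in Cs sham hearts. Sham replicate 4 was also low in Sln (8.35) and Myl4 (9.45), and irradiated replicate 1 in Dkk3 (5.88). All 6 atrial markers were higher in Cs 120 cGy hearts (median difference 1.31) and 0 were called. Their summed signal was 6690 to 15949 in Cs 120 cGy hearts and 2137 to 11089 in Cs sham hearts. In whole-heart RNA fewer cells of a type and less RNA per cell cannot be told apart, and the part of this atrial signal in the results below was not tested. Without Cs sham replicate 5, 56 genes were called in place of 133, and leaving out 1 other heart gave 44 to 178.

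The circadian clock is a transcriptional loop that runs in heart muscle as in most tissues. Arntl (BMAL1) pairs with Clock or Npas2 and switches on genes that carry E-box elements, among them the Per and Cry genes, whose proteins then inhibit the pair. A second loop of REV-ERB repressors (Nr1d1, Nr1d2) and ROR activators sets the level of Arntl, and the proteins Dbp, Hlf and Tef pass the rhythm on through D-box elements, which Nfil3 represses. Arntl is therefore normally high when Per3 and Dbp are low, and the reverse.

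Promoters that carry these elements are shown for 4 genes, all upregulated below, because E-box and D-box are the elements named above. In 250 bases before the annotated start (RefSeq, GRCm38.p6), the E-box CACGTG, which reads the same on both strands, is in capitals for Ciart (chr3:95882229-95882478, minus strand), where it occurs 3 times, for Bhlhe41 (chr6:145865421-145865670, minus strand), where it occurs 1 time, and for the second listed start of Tspan4 (chr7:141476130-141476379, plus strand), where it occurs 1 time. In Per3 (chr4:151044666-151044915, minus strand) the capitals mark 2 matches to the D-box TTANGTAA.

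Ciart: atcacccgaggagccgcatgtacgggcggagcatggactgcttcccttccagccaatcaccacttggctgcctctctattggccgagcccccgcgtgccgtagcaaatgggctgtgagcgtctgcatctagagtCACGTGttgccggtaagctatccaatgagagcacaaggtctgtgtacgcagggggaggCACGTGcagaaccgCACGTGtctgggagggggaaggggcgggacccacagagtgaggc
Bhlhe41: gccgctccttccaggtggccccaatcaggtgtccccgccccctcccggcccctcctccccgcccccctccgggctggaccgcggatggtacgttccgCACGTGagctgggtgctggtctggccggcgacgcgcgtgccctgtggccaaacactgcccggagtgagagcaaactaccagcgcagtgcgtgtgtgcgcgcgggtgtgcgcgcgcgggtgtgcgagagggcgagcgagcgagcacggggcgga
Tspan4: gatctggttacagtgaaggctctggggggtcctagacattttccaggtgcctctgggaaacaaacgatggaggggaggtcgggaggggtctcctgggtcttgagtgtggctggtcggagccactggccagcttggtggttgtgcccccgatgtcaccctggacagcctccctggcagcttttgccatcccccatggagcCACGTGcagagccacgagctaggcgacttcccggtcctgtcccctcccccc
Per3: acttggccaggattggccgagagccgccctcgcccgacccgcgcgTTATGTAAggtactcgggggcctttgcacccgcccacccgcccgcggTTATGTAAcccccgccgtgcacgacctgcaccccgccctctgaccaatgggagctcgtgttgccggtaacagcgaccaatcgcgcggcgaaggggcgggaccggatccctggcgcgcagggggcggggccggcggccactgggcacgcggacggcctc

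Of all 32851 listed promoter windows of this length, 6.02% hold CACGTG, 2.06% hold TTANGTAA on either strand and 14% hold the REV-ERB/ROR element AGGTCA on either strand. Among the 18 clock genes measured, 16 had a listed promoter, of which 5 held CACGTG (Bhlhe41, Ciart, Cry1, Per1 and Tef), 1 held TTANGTAA (Per3) and 4 held AGGTCA (Clock, Nfil3, Nr1d2 and Per1). No window of Arntl, Npas2, Dbp, Cry2 or Hlf held CACGTG. These counts are of genes, some with several windows, whereas the background is a share of windows. Counted by window, 6 of 21 windows of the clock genes and 10 of 68 windows of the named genes held CACGTG. Of the 48 genes named in this report that had a listed promoter, 10 held CACGTG, and they went both ways. Bhlhe41, Ciart, Rhobtb1 and Tspan4 were upregulated, and Adam19, Ppp1r3c, Rcan1, Sgk1 and Slc41a3 were downregulated. Irs2 was not called against Cs sham. These are letter matches in a short window, and Cry1 and Per1 were not among the called genes.

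In a limma model of all 24 Cs arrays with batch as a term, 133 of 19505 genes were called differentially expressed (DEGs) at Cs 120 cGy against Cs sham at a Benjamini-Hochberg adjusted p under 0.25, the study's threshold, which is 0.682% of genes tested. Of these, 60 were upregulated (0.308%) and 73 downregulated (0.374%). At an adjusted p under 0.05, 29 genes were called (18 upregulated, 11 downregulated). A threshold of 0.25 admits about 1 false call in 4, so the genes under 0.05 carry the firmer statements. All 133 DEGs differed in the same direction in batch 1 and in batch 2, as did 10469 of all 19505 genes tested. In 61 DEGs the values of the groups did not overlap, against 1.12% of all genes tested. Both shares are descriptions, because the same values made the calls. The median absolute log2 difference of the 133 DEGs was 0.49. Of the DEGs above background in at least 1 heart of each group, 9 differed by more than 2-fold. The other 8 DEGs, Jchain among them, were given no fold and are not in that count. The median difference of all genes was close to 0, at -0.00397. Of the 19505 genes, 1569 had an unadjusted limma p under 0.05, which is the background for such counts in the lists below. Differences below are log2 differences, Cs 120 cGy minus Cs sham, with the SE of the fit, and adjusted p values are from limma.

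**Figure D1:**
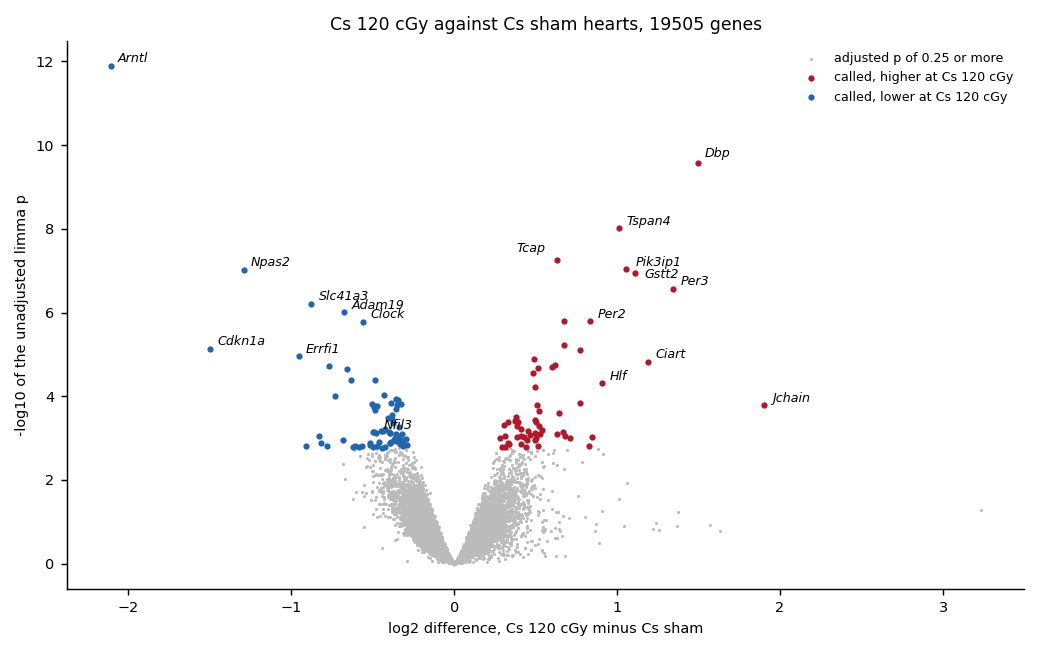
Log2 difference between Cs 120 cGy and Cs sham hearts (x axis) against -log10 of the unadjusted limma p (y axis) for 19505 genes. The 133 called genes are colored, with Arntl farthest to the left at -2.11 and Jchain and Dbp (1.49) farthest to the right among them.

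Of the 18 clock genes measured, 12 were called, 4 downregulated and 8 upregulated. Of 4 activators measured, 3 were downregulated and 0 upregulated. Arntl, the partner without which the loop stops, measured 5.73, 5.17, 5.50, 5.36 and 5.01 in Cs 120 cGy hearts, against 7.59, 7.46, 7.43, 7.09 and 7.75 in Cs sham hearts. The groups were separated by more than 1 log2 unit, with the highest irradiated heart below the lowest sham heart. The difference was -2.11 ± 0.15, 4.32-fold lower, with an adjusted p of 2.46e-08, and it was -2.03 in batch 1 and -2.23 in batch 2. Npas2, which can stand in for Clock, measured 3.93, 3.95, 4.76, 4.69 and 4.91 in Cs 120 cGy hearts, against 5.42, 5.57, 5.65, 6.05 and 6.02 in Cs sham hearts. No values overlapped, and 2 of the batch 1 irradiated hearts lay lowest. The difference was -1.29 ± 0.17 (2.45-fold lower, adjusted p = 0.00031). Clock itself measured 9.07, 9.15, 8.98, 8.53 and 8.76 in Cs 120 cGy hearts, against 9.62, 9.60, 9.61, 9.15 and 9.31 in Cs sham hearts, which again left the groups without overlap (-0.56 ± 0.09, adjusted p = 0.0025). In both groups Clock was lower in batch 2 than in batch 1. Rora, a receptor that raises Arntl, did not pass the test (0.15 ± 0.11, adjusted p = 0.78).

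Of 6 period and cryptochrome repressors, counting Ciart (CHRONO), 4 were upregulated and 0 downregulated. Per3 measured 7.14, 7.72, 7.44, 7.68 and 7.54 in Cs 120 cGy hearts, against 5.94, 6.18, 6.48, 6.65 and 5.55 in Cs sham hearts. The lowest irradiated heart was above the highest sham heart, and the difference was 1.35 ± 0.19 (2.54-fold higher, adjusted p = 0.000658). Per2, whose protein sets the length of the cycle, measured 6.83, 6.64, 6.80, 6.81 and 6.57 in Cs 120 cGy hearts, against 6.20, 6.10, 5.77, 5.70 and 5.71 in Cs sham hearts, without overlap (0.84 ± 0.13, adjusted p = 0.0025). Cry2, a direct inhibitor of the Clock and Arntl pair, measured 7.57, 7.38, 7.81, 8.16 and 7.98 in Cs 120 cGy hearts, against 6.73, 6.90, 6.98, 7.56 and 7.36 in Cs sham hearts. Here the groups overlapped across batches, since batch 2 was higher in both groups, and within batches the differences were 0.72 in batch 1 and 0.61 in batch 2 (0.68 ± 0.12 in the fit, adjusted p = 0.00826). Ciart, which binds Arntl and represses it, and whose promoter is shown above with 3 E-boxes, measured 6.55, 5.74, 6.45, 6.60 and 6.72 in Cs 120 cGy hearts, against 5.18, 5.65, 4.66, 5.88 and 4.74 in Cs sham hearts. Irradiated replicate 2 lay below sham replicate 4, and the difference was 1.19 ± 0.22 (2.28-fold higher, adjusted p = 0.0155). Per1 and Cry1 did not pass the test, at 0.22 ± 0.17 (adjusted p = 0.798) and -0.05 ± 0.14 (adjusted p = 0.965).

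Of the 4 REV-ERB and DEC repressors, 2 were upregulated. Nr1d2 (REV-ERB beta), which represses Arntl, measured 8.92, 8.89, 8.93, 8.47 and 8.45 in Cs 120 cGy hearts, against 8.18, 8.38, 8.19, 7.97 and 7.55 in Cs sham hearts. No values overlapped, and each batch was separated within itself (0.67 ± 0.11, adjusted p = 0.0025). Bhlhe41 (DEC2), which competes for E-boxes, measured 8.59, 8.09, 8.35, 8.23 and 8.61 in Cs 120 cGy hearts, against 7.60, 7.63, 7.65, 8.19 and 7.72 in Cs sham hearts. Sham replicate 4 stood above the other sham hearts and above irradiated replicate 2 (0.62 ± 0.11, adjusted p = 0.0171). Their closest relatives did not pass: Nr1d1 differed by 0.48 ± 0.18 (adjusted p = 0.513) and Bhlhe40 by 0.09 ± 0.11 (adjusted p = 0.899).

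Among the output factors, Dbp measured 10.93, 10.76, 10.91, 10.79 and 10.90 in Cs 120 cGy hearts, against 9.15, 9.27, 9.22, 10.13 and 9.05 in Cs sham hearts. The irradiated hearts lay within 0.17 of each other, while sham replicate 4 stood apart above the other sham hearts. The difference was 1.49 ± 0.14 (2.82-fold higher, adjusted p = 2.56e-06). Hlf, a relative of Dbp that acts on the same element, measured 6.28, 6.05, 6.60, 6.96 and 7.04 in Cs 120 cGy hearts, against 5.32, 5.72, 5.55, 6.03 and 5.77 in Cs sham hearts, a narrow separation (0.91 ± 0.18, adjusted p = 0.0345). Tef, the third relative, did not pass (0.35 ± 0.15, adjusted p = 0.567). Nfil3, the repressor that opposes them, measured 5.58, 5.47, 5.79, 5.71 and 5.77 in Cs 120 cGy hearts, against 6.04, 6.44, 6.31, 5.82 and 6.10 in Cs sham hearts. It was downregulated (-0.48 ± 0.12, adjusted p = 0.193) but the call was kept in 3 of the 10 fits that left out 1 heart (adjusted p 0.144 to 0.389). The Arntl, Npas2, Clock, Per2, Per3, Cry2, Ciart, Nr1d2, Bhlhe41, Dbp and Hlf calls were each kept in all 10 such fits.

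**Figure D2:**
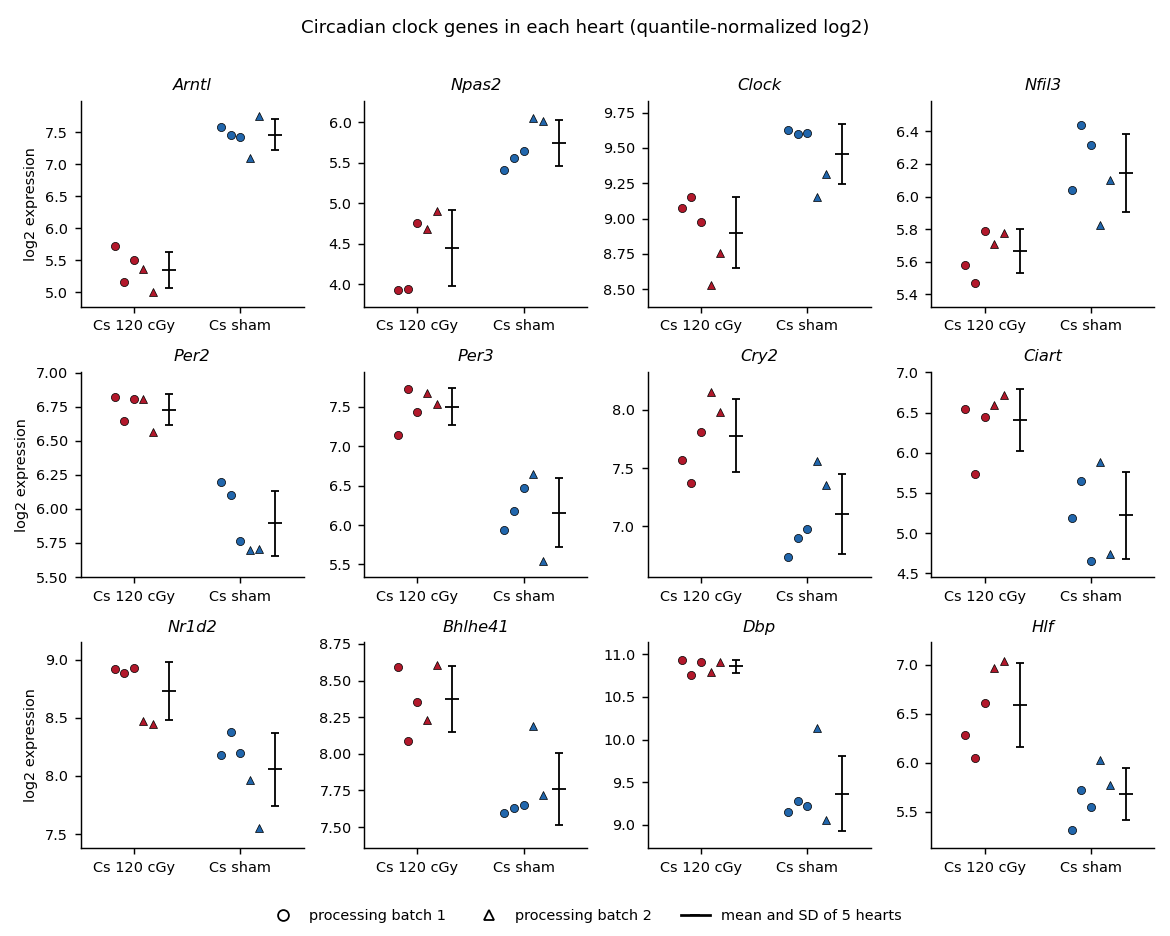
Quantile-normalized log2 expression (y axis) of 12 clock genes in each heart, with Cs 120 cGy at left and Cs sham at right, batch 1 as circles and batch 2 as triangles, and bars for the mean and SD of 5 hearts. Arntl, Npas2, Clock and Nfil3 lie lower and the other 8 higher in Cs 120 cGy hearts.

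Genes that follow the clock in many tissues gave a mixed picture, with 4 of 10 upregulated and 0 downregulated. Wee1, the mitotic inhibitor kinase whose gene is driven by Clock and Arntl in mouse liver, measured 7.72, 7.80, 7.61, 7.99 and 7.86 in Cs 120 cGy hearts, against 6.90, 7.11, 7.27, 7.36 and 7.13 in Cs sham hearts. The groups did not overlap, yet the call (0.64 ± 0.15, adjusted p = 0.105) was kept in 7 of the 10 fits that left out 1 heart (adjusted p 0.11 to 0.333). Usp2, a deubiquitinase, averaged 9.10 ± 0.19 in Cs 120 cGy hearts and 8.61 ± 0.12 in Cs sham hearts (SD, n = 5 each) and differed by 0.48 ± 0.09 (adjusted p = 0.0214). Fmo2, a flavin monooxygenase, averaged 8.70 ± 0.23 in Cs 120 cGy hearts and 8.19 ± 0.26 in Cs sham hearts (SD, n = 5 each), with a difference of 0.51 ± 0.11 (adjusted p = 0.0802). Rhobtb1 differed by 0.63 ± 0.16 (adjusted p = 0.197), and by 0.27 in batch 1 and 1.18 in batch 2. Fmo2 was called in 8 of the 10 fits that left out 1 heart (adjusted p 0.0245 to 0.279) and Rhobtb1 in 2 of the 10 fits that left out 1 heart (adjusted p 0.035 to 0.476). In the same list Klf15 (0.02 ± 0.14), Klf9 (0.11 ± 0.10) and Tsc22d3 (0.24 ± 0.14) did not pass the test. Lonrf3, Ypel2 and Ppp1r3b were lower in Cs 120 cGy hearts, the lowest at -0.43, and were not called either.

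Clock genes were also measured in the sham hearts of the Si and Ti experiments, none of which were irradiated. In batch 2, where all sham groups have arrays, Arntl was 5.01 and 5.36 in Cs 120 cGy hearts, 7.09 and 7.75 in Cs sham hearts, 6.79 and 7.69 in Ti sham hearts, and 4.73 to 6.0 in the 4 Si sham hearts. Dbp was 10.79 and 10.90 in Cs 120 cGy hearts, 9.05 and 10.13 in Cs sham hearts, 9.01 and 10.30 in Ti sham hearts, and 10.70 to 11.15 in Si sham hearts. Per3 was 7.54 and 7.68 in Cs 120 cGy hearts and at most 7.30 in the unirradiated hearts of batch 2. Of the 12 called clock genes, both Cs 120 cGy values of batch 2 lay inside the range of these unirradiated hearts in 9, 1 of the pair lay outside it in 2 (Per2 and Cry2), and both lay outside it in 1 (Per3). That range pools the sham groups. In Ciart, Nr1d2 and Nfil3 both values, and in Npas2 and Bhlhe41 1 of the pair, lay between Si sham hearts and the Cs and Ti sham hearts, inside no single group. Ciart, for example, was 6.60 and 6.72 in Cs 120 cGy hearts. It was at most 5.88 in Cs sham and 5.93 in Ti sham hearts, and at least 6.82 in Si sham hearts. Per1, which was not called against Cs sham, was also outside it, at 7.84 and 7.87 in Cs 120 cGy hearts and at most 7.66 in unirradiated hearts. The hour at which hearts were collected was not given in the sources used here.

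Cdkn1a (p21), which inhibits cyclin-dependent kinases and is a p53 target after DNA damage, was downregulated and had the second largest decrease among the DEGs. It measured 6.49, 6.15, 6.19, 7.01 and 6.84 in Cs 120 cGy hearts, against 8.15, 8.39, 6.74, 8.37 and 8.51 in Cs sham hearts. Sham replicate 3 stood far below the other 4 sham hearts and within the irradiated range, and the difference was -1.50 ± 0.26 (2.82-fold lower, adjusted p = 0.00965), kept in 10 of the 10 fits that left out 1 heart (adjusted p 0.000493 to 0.0472). Of the 7 CDK inhibitors measured it was the only one called. Cdkn1b (p27) differed by 0.08 ± 0.10 and Cdkn1c (p57) by -0.04 ± 0.15, neither past the test. None of 20 other p53 targets was called, with differences from -0.28 to 0.37 over the list, and 3 had an unadjusted limma p under 0.05. Of 19 DNA damage signaling and repair genes 0 were called and 0 had an unadjusted limma p under 0.05. Over all genes tested, 1569 of 19505 had such a p. Mdm2, which p53 induces and which then degrades p53, measured 8.61, 8.56, 8.57, 8.32 and 8.80 in Cs 120 cGy hearts, against 8.74, 8.53, 8.68, 8.70 and 8.67 in Cs sham hearts. Its groups lay over each other, as did those of Ccng1, another p53 target, at 11.72, 11.79, 11.70, 11.56 and 11.61 in Cs 120 cGy hearts, against 11.76, 11.75, 11.76, 11.79 and 11.69 in Cs sham hearts.

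Genes that restrain growth signals moved in both directions. Errfi1 (MIG6), which inhibits EGF receptor kinases, measured 6.08, 6.60, 6.52, 7.05 and 7.02 in Cs 120 cGy hearts, against 7.45, 7.70, 7.08, 7.98 and 7.84 in Cs sham hearts. The groups came within 0.03 of each other without overlap, and it was downregulated (-0.96 ± 0.17, 1.94-fold lower, adjusted p = 0.0128). Pik3ip1, which inhibits PI3 kinase, measured 8.95, 8.79, 8.80, 9.17 and 8.59 in Cs 120 cGy hearts, against 7.85, 7.73, 8.0, 7.84 and 7.60 in Cs sham hearts. It was upregulated with a clear gap between groups (1.06 ± 0.14, 2.08-fold higher, adjusted p = 0.00031). The other 10 growth signal brakes measured, among them Spry2 (0.25 ± 0.10) and Dusp6 (-0.20 ± 0.17), did not pass. Errfi1 also belongs to the glucocorticoid-induced genes, of which 3 of 12 were downregulated. The others were Sgk1, a kinase of sodium handling (-0.51 ± 0.14, adjusted p = 0.236), and Ddit4 (REDD1), an inhibitor of mTORC1 (-0.62 ± 0.17, adjusted p = 0.247). Classical members such as Fkbp5 (-0.11 ± 0.15) and Zbtb16 (-0.04 ± 0.31) did not pass. Sgk1 was called in 1 of the 10 fits that left out 1 heart (adjusted p 0.174 to 0.477) and Ddit4 in 3 of the 10 fits that left out 1 heart (adjusted p 0.0524 to 0.54).

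Among 20 immediate early genes, 2 were downregulated at the edge of the threshold, Nr4a3, an orphan nuclear receptor (-0.91 ± 0.25, adjusted p = 0.246), and Sik1, a kinase induced by cAMP (-0.78 ± 0.22, adjusted p = 0.246). Fos (-0.03 ± 0.25) and Egr1 (-0.04 ± 0.27) did not pass. Each of the called pair was called in 2 of the 10 fits that left out 1 heart. Ifrd1, a transcriptional coregulator of muscle differentiation, measured 5.99, 6.09, 6.29, 6.10 and 6.37 in Cs 120 cGy hearts, against 7.33, 7.35, 6.69, 6.66 and 6.65 in Cs sham hearts, without overlap (-0.77 ± 0.14, adjusted p = 0.0174). Rcan1, the calcineurin inhibitor that calcineurin itself induces, measured 8.04, 7.99, 8.09, 7.94 and 8.0 in Cs 120 cGy hearts, against 9.05, 8.95, 8.09, 8.65 and 8.52 in Cs sham hearts. The irradiated hearts lay within a narrow band and sham replicate 3 fell at its upper edge (-0.64 ± 0.13, adjusted p = 0.0302), and it was the only DEG among 10 calcineurin and NFAT genes. Abra (STARS), an actin-binding activator of the serum response in striated muscle, averaged 7.51 ± 0.29 in Cs 120 cGy hearts and 8.19 ± 0.49 in Cs sham hearts (SD, n = 5 each, -0.68 ± 0.18, adjusted p = 0.219), was -1.0 in batch 1 and -0.21 in batch 2, and was called in 3 of the 10 fits that left out 1 heart (adjusted p 0.069 to 0.476).

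Detoxification enzymes gave 2 DEGs of 17, both upregulated. Gstt2, a theta-class glutathione transferase, measured 6.56, 6.70, 6.95, 7.12 and 7.01 in Cs 120 cGy hearts, against 5.19, 5.96, 5.99, 5.95 and 5.69 in Cs sham hearts. All irradiated hearts were above all sham hearts (1.11 ± 0.15, 2.16-fold higher, adjusted p = 0.000316). Ephx1, the microsomal epoxide hydrolase, measured 8.26, 7.94, 8.25, 8.47 and 8.30 in Cs 120 cGy hearts, against 7.64, 7.72, 7.70, 7.65 and 7.50 in Cs sham hearts. Its sham hearts were tightly grouped and the gap between groups was 0.22 (0.60 ± 0.11, 1.52-fold higher, adjusted p = 0.0174). The neighboring theta-class enzymes Gstt1 (0.19 ± 0.12) and Gstt3 (0.18 ± 0.17) did not pass, nor did the mu-class members, of which Gstm7 had the lowest value at -0.28 ± 0.09. Of 19 antioxidant genes, 1 was upregulated, Gclm, the modifier subunit of the enzyme that begins glutathione synthesis (0.38 ± 0.10, adjusted p = 0.165, called in 4 of the 10 fits that left out 1 heart (adjusted p 0.0636 to 0.407)). Adh1, an alcohol and retinol dehydrogenase, averaged 8.23 ± 0.33 in Cs 120 cGy hearts and 7.52 ± 0.38 in Cs sham hearts (SD, n = 5 each, 0.71 ± 0.19, adjusted p = 0.208), and was called in 2 of the 10 fits that left out 1 heart (adjusted p 0.0986 to 0.477).

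Muscle structure was mostly level. Tcap (telethonin), which caps titin at the Z-disc, measured 10.68, 10.37, 10.52, 10.57 and 10.68 in Cs 120 cGy hearts, against 9.97, 9.92, 9.94, 9.99 and 9.87 in Cs sham hearts. The sham hearts spanned only 0.12 log2 units, and no values overlapped (0.63 ± 0.08, 1.55-fold higher, adjusted p = 0.000264). It was the only DEG among 18 Z-disc genes, of which its anchor Ttn differed by -0.01 ± 0.11 and Actn2 by -0.03 ± 0.06. Of 15 contractile sarcomere genes and 13 calcium handling genes 0 were called, and 0 of either list had an unadjusted limma p under 0.05. Of 30 respiratory chain subunits 0 were called and 1 had an unadjusted limma p under 0.05, with differences from -0.16 to 0.13. Kcne1, a subunit of the slow delayed rectifier, was the only DEG of 15 potassium channel genes (-0.61 ± 0.17, adjusted p = 0.246). Its highest sham heart was replicate 4, at 6.22, and it was called in 2 of the 10 fits that left out 1 heart (adjusted p 0.215 to 0.533).

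Tspan4, a tetraspanin of migrasomes, measured 7.34, 7.34, 7.19, 7.44 and 7.33 in Cs 120 cGy hearts, against 5.96, 6.36, 6.38, 6.50 and 6.37 in Cs sham hearts. The irradiated hearts lay within 0.25 of each other and far from the sham hearts, of which replicate 1 was lowest (1.01 ± 0.12, 2.02-fold higher, adjusted p = 6.34e-05). Of 14 magnesium and iron transport genes, 2 were downregulated. Slc41a3, a mitochondrial magnesium exporter, measured 8.61, 8.21, 8.22, 8.53 and 8.54 in Cs 120 cGy hearts, against 9.12, 9.20, 9.17, 9.33 and 9.68 in Cs sham hearts, without overlap (-0.88 ± 0.13, 1.84-fold lower, adjusted p = 0.00134). Tfrc, the transferrin receptor, differed by -0.83 ± 0.22 (adjusted p = 0.208), by -0.40 in batch 1 and -1.47 in batch 2, and was called in 3 of the 10 fits that left out 1 heart (adjusted p 0.0293 to 0.48). In the list of matrix proteases and spondins, 2 of 17 were downregulated. Adam19, a metalloprotease needed for the endocardial cushion in mice, measured 5.86, 6.27, 6.07, 6.40 and 6.26 in Cs 120 cGy hearts, against 6.70, 6.67, 6.78, 6.98 and 7.10 in Cs sham hearts. The groups were 0.28 apart (-0.67 ± 0.10, adjusted p = 0.00194). Spon2, a secreted matrix protein, measured 5.35, 5.06, 5.67, 5.16 and 5.25 in Cs 120 cGy hearts, against 5.91, 6.01, 5.91, 6.05 and 6.26 in Cs sham hearts. Irradiated replicate 3 was the nearest to the sham hearts (-0.73 ± 0.15, adjusted p = 0.0608). Of 20 collagen and TGF-beta genes 0 were called and 2 had an unadjusted limma p under 0.05.

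**Figure D3:**
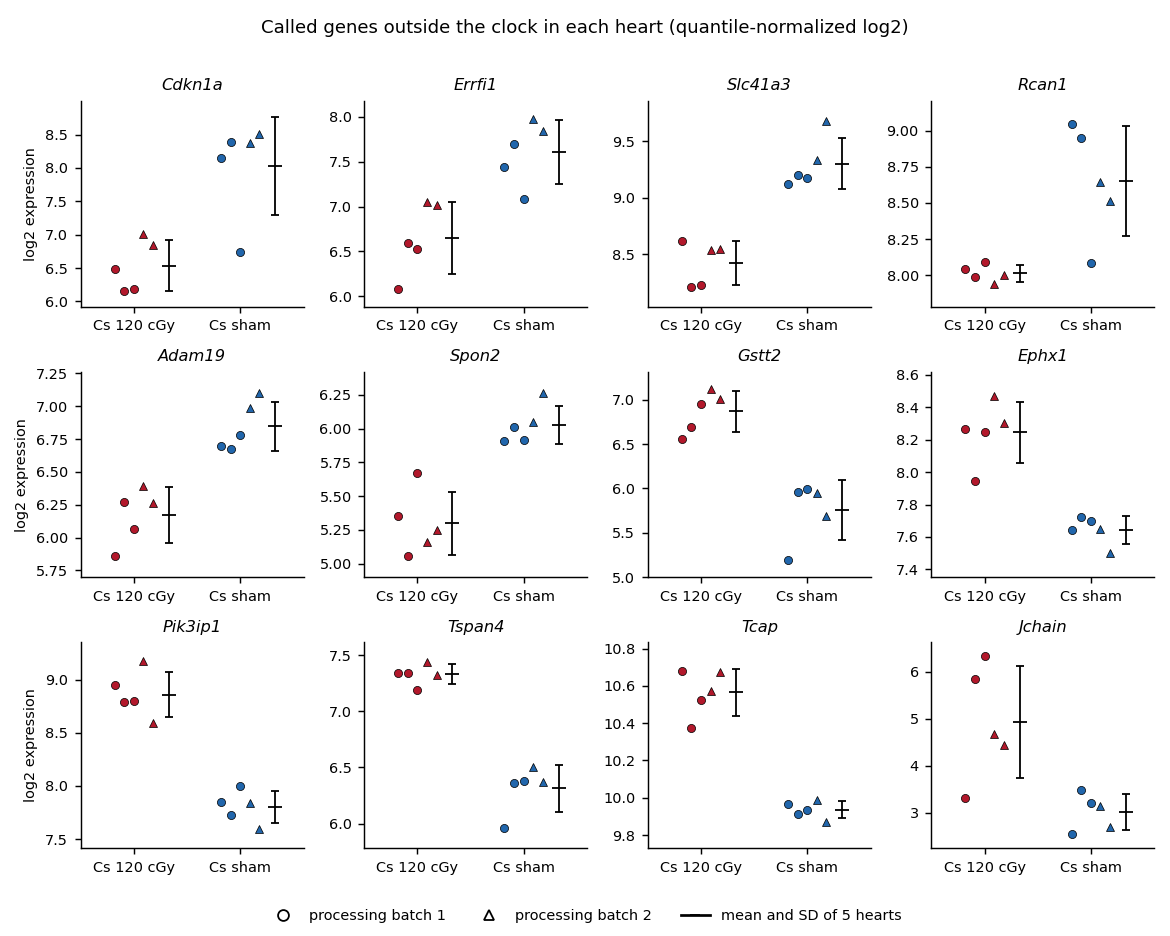
Quantile-normalized log2 expression (y axis) of 12 DEGs outside the clock in each heart, with Cs 120 cGy at left and Cs sham at right, batch 1 as circles and batch 2 as triangles, and bars for the mean and SD of 5 hearts. Tcap and Tspan4 show wide gaps between tight groups, whereas in Cdkn1a 1 sham heart at 6.74 lies among the irradiated hearts.

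In metabolism, Txnip, which holds back glucose uptake and binds thioredoxin, was upregulated (0.68 ± 0.18, adjusted p = 0.208), by 0.44 in batch 1 and 1.03 in batch 2. Ppp1r3c, a glycogen-targeting subunit of protein phosphatase, was downregulated (-0.39 ± 0.11, adjusted p = 0.234), and these were the 2 DEGs of 14 glucose and glycogen genes. Ppara, the nuclear receptor of fat oxidation, was the only DEG of 19 fasting and fat oxidation genes (-0.36 ± 0.09, adjusted p = 0.195). Those 3 calls were kept in 3 or 4 of the 10 fits that left out 1 heart. Mid1ip1, a partner of fatty acid synthesis enzymes, averaged 8.01 ± 0.33 in Cs 120 cGy hearts and 7.24 ± 0.52 in Cs sham hearts (SD, n = 5 each) and was upregulated (0.77 ± 0.14, adjusted p = 0.00965). It was 0.92 in batch 1 and 0.55 in batch 2, and irradiated replicate 2 lay below the batch 2 sham hearts. Slc7a2, a transporter of cationic amino acids, averaged 4.79 ± 0.40 in Cs 120 cGy hearts and 3.95 ± 0.34 in Cs sham hearts (SD, n = 5 each, 0.84 ± 0.22, adjusted p = 0.208), and Slc16a6, a transporter of the monocarboxylate family, averaged 4.72 ± 0.53 in Cs 120 cGy hearts and 5.54 ± 0.63 in Cs sham hearts (SD, n = 5 each, -0.82 ± 0.22, adjusted p = 0.234). They were called in 2 and 3 of the 10 fits that left out 1 heart.

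Chaperones had 2 DEGs of 18, both downregulated. Hsp90aa1, the inducible cytosolic HSP90, measured 8.44, 8.71, 8.69, 8.82 and 9.05 in Cs 120 cGy hearts, against 9.39, 9.41, 8.87, 9.23 and 9.18 in Cs sham hearts. Irradiated replicate 5 and sham replicate 3 made the groups overlap (-0.47 ± 0.11, adjusted p = 0.0802), and without Cs sham replicate 1 the adjusted p was 0.267. Cacybp, a co-chaperone that binds calcyclin, differed by -0.41 ± 0.10 (adjusted p = 0.13) and was called in 6 of the 10 fits that left out 1 heart (adjusted p 0.0317 to 0.381). In the rest of the list the differences ran up to 0.01, with Dnajb1 at -0.50 ± 0.18 and Chordc1 at -0.34 ± 0.11 not past the adjusted threshold. Among 16 genes of the unfolded protein response, 1 was upregulated, Stc2, a secreted glycoprotein (0.50 ± 0.13, adjusted p = 0.219), called in 3 of the 10 fits that left out 1 heart (adjusted p 0.184 to 0.43).

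Immune genes gave few calls. Jchain, which joins immunoglobulin chains in plasma cells, was above background in 4 of 5 Cs 120 cGy hearts and in 0 of 5 Cs sham hearts, so that no fold is given, and it measured 3.32, 5.85, 6.33, 4.68 and 4.44 in Cs 120 cGy hearts, against 2.54, 3.49, 3.21, 3.15 and 2.71 in Cs sham hearts. Irradiated replicate 1 lay within the sham range (adjusted p = 0.0802). No other B or plasma cell marker was called, all 7 measured markers including Jchain were higher in Cs 120 cGy hearts, and their summed signal was 107 to 216 in Cs 120 cGy hearts and 85.1 to 108 in Cs sham hearts. S100a8, a neutrophil protein, was above background in 1 of 5 Cs 120 cGy hearts and 0 of 5 Cs sham hearts (adjusted p = 0.246), while its partner S100a9 overlapped at 4.57, 5.16, 4.82, 4.06 and 4.60 in Cs 120 cGy hearts, against 4.39, 4.54, 4.72, 3.86 and 4.30 in Cs sham hearts. Ifit3b, an interferon-induced gene outside the list of interferon-stimulated genes, measured 6.32, 6.63, 6.18, 6.27 and 5.81 in Cs 120 cGy hearts, against 5.43, 5.45, 5.19, 5.71 and 5.59 in Cs sham hearts. The groups did not overlap, and the difference of 0.77 ± 0.17 (adjusted p = 0.0802) was 1.02 in batch 1 and 0.39 in batch 2. Of 19 interferon-stimulated genes in the list 0 were called (1 with an unadjusted limma p under 0.05, median 0.15), as were 0 of 6 MHC class II genes (1 with an unadjusted limma p under 0.05).

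The markers of other cell types were not called in the remaining lists, but several varied widely between hearts. Hepatocyte genes were present at high levels in some hearts. Alb (albumin) measured 10.43, 10.04, 11.18, 4.51 and 4.46 in Cs 120 cGy hearts, against 11.48, 8.53, 7.16, 5.05 and 9.85 in Cs sham hearts, with high values in batch 1 of both groups and in sham replicate 5. The summed signal of the 8 hepatocyte markers was 454 to 4287 in Cs 120 cGy hearts and 388 to 4921 in Cs sham hearts. White adipocyte genes varied too. Adipoq (adiponectin) measured 5.16, 8.16, 8.68, 3.88 and 3.79 in Cs 120 cGy hearts, against 5.92, 7.50, 6.36, 3.58 and 3.61 in Cs sham hearts, with batch 1 above batch 2 in both groups, and Plin1, Cidec and Retn also had their highest values in batch 1. The summed signal of the 7 adipocyte markers was 3713 to 4057 in Cs 120 cGy hearts and 3310 to 4058 in Cs sham hearts. Most of this sum was Lpl, at 11.52 to 11.93 in Cs 120 cGy hearts and 11.56 to 11.92 in Cs sham hearts. The sum therefore hides the spread of the dimmer members, such as Cidec, at 3.92 to 7.92 in Cs 120 cGy hearts and 3.97 to 6.83 in Cs sham hearts. Summed macrophage markers ran from 1147 to 2012 in Cs 120 cGy hearts and from 1107 to 1545 in Cs sham hearts, with 9 of 11 higher in Cs 120 cGy hearts and 0 called. In all these lists only Cdk1 and Dntt, of the thymus and proliferation markers, were not above background on any of the 10 arrays. The part of these cell types in the DEGs was not tested.

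**Figure D4:**
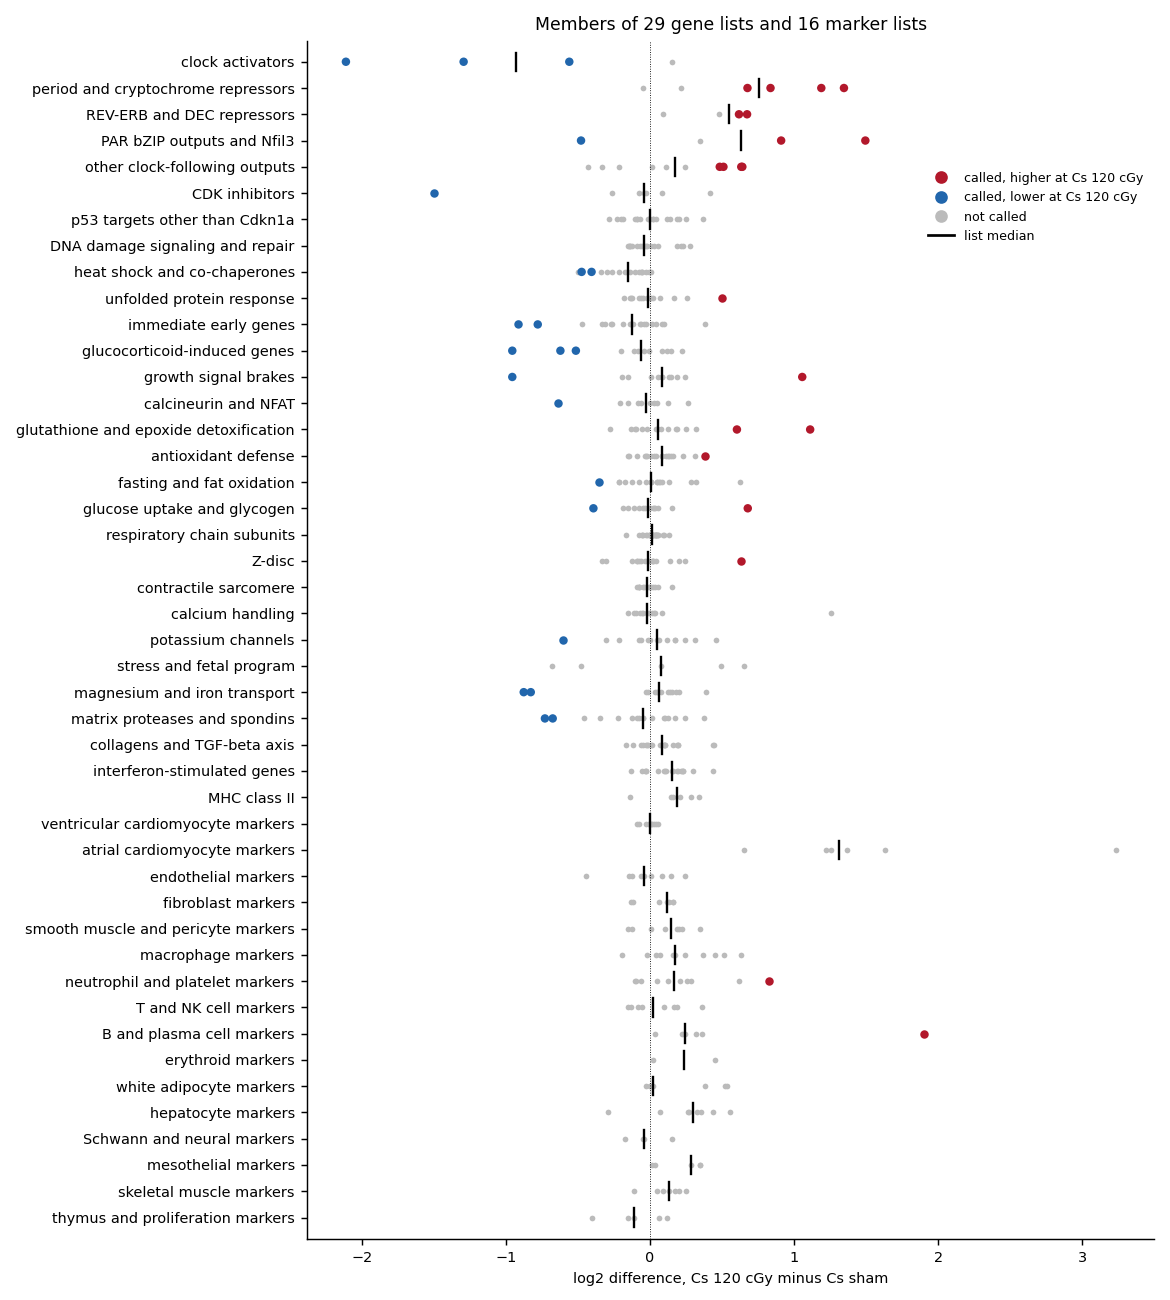
Log2 difference between Cs 120 cGy and Cs sham hearts (x axis) of each measured member of 29 pathway lists and 16 marker lists (rows), with colored points for called genes and a black bar for the list median. The 4 clock lists hold 3, 4, 2 and 3 called genes, and the atrial marker list has the highest median, 1.31, without a called gene.

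All 12 genes that the study named as common to the 3 radiation types were called here (5 upregulated, 7 downregulated), and 9 of the 10 that it named as common to the Cs doses; P2rx7, an ATP-gated channel, was not (0.41 ± 0.12, adjusted p = 0.287). Those lists were chosen on these same hearts, so the counts are no independent evidence. The background is 0.682% of genes. The study's results text reports Arntl, Cdkn1a, Slc41a3 and Bhlhe41 as upregulated after Cs-IR when measured by quantitative PCR in heart tissue. That statement covers the Cs doses together and rests on 3 hearts per group. The fifth gene measured so, Per3, is reported as regulated in all conditions. On the arrays used here, at 120 cGy alone, Per3 (1.35) and Bhlhe41 (0.62) were upregulated, but Arntl (-2.11), Cdkn1a (-1.50) and Slc41a3 (-0.88) were downregulated. The study's discussion describes Arntl as downregulated with increasing Cs-IR dose. The reason for the opposite directions was not tested.

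The 120 cGy values were next set beside those of the other doses, which share the same 5 sham hearts. Arntl differed from Cs sham by -1.33 (40 cGy), -0.64 (80 cGy), -2.11 (120 cGy) and -2.25 (160 cGy). Npas2 differed by -0.89 (40 cGy), -0.48 (80 cGy), -1.29 (120 cGy) and -0.89 (160 cGy), and Cdkn1a by -0.29 (40 cGy), -1.25 (80 cGy), -1.50 (120 cGy) and -0.95 (160 cGy). In none of the 3 genes did the differences follow the order of the doses. Per2 differed by 0.42 (40 cGy), 0.06 (80 cGy), 0.84 (120 cGy) and 0.60 (160 cGy), and Dbp by 1.44 (40 cGy), 1.12 (80 cGy), 1.49 (120 cGy) and 1.62 (160 cGy). Fmo2 differed by 0.02 (40 cGy), 0.17 (80 cGy), 0.51 (120 cGy) and 0.18 (160 cGy), and the direct test below bears on this gene.

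**Figure D5:**
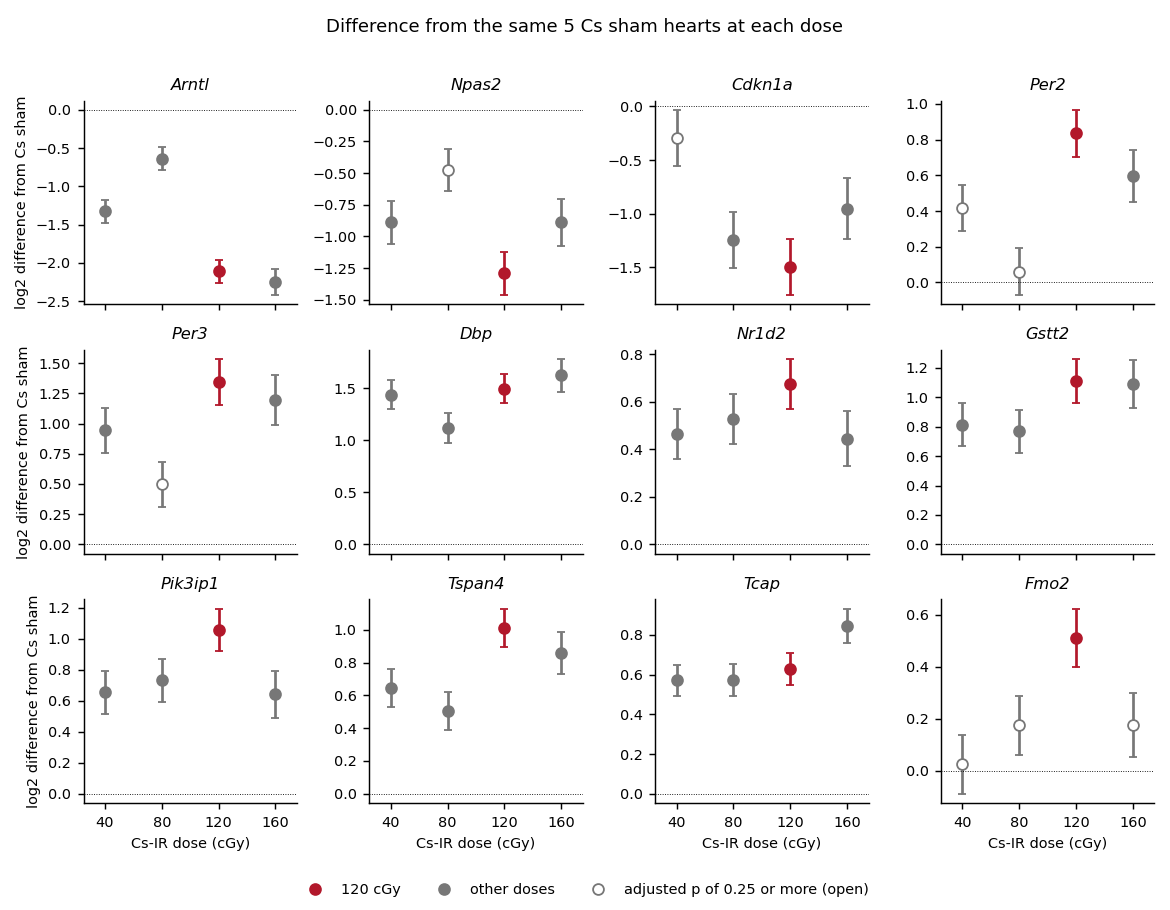
Log2 difference from the same 5 Cs sham hearts (y axis, with SE of the fit) against Cs-IR dose in cGy (x axis) for 12 genes, with 120 cGy in red and open points at an adjusted p of 0.25 or more. Arntl lies at -2.11 at 120 cGy and -0.64 at 80 cGy, and Fmo2 is filled at 120 cGy alone.

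Whether 120 cGy hearts differed from hearts at the other doses was tested directly against the mean of the 40, 80 and 160 cGy groups. In this comparison 45 of 19505 genes were called (0.231%), 16 higher and 29 lower at 120 cGy, and 14 of them were also DEGs against Cs sham. Only 2 passed an adjusted p under 0.05. Mtch1, a mitochondrial outer membrane protein, averaged 8.13 ± 0.41 at 120 cGy, against 7.89 ± 0.42 in the 40 cGy, 7.91 ± 0.34 in the 80 cGy and 7.56 ± 0.08 in the 160 cGy hearts (SD), with a difference of 0.44 ± 0.07 (SE, adjusted p = 0.0324). The 160 cGy group has no array in batch 2, so its part rests on the batch term. Bcl3, a nuclear partner of NF-kappa-B, averaged 4.89 ± 0.41 at 120 cGy, against 5.57 ± 0.37 in the 40 cGy, 5.34 ± 0.31 in the 80 cGy and 5.21 ± 0.26 in the 160 cGy hearts (SD), a difference of -0.56 ± 0.09 (SE, adjusted p = 0.0365).

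Of the clock genes, Arntl and Per2 were called against the other doses. Arntl averaged 5.35 ± 0.28 at 120 cGy, against 6.14 ± 0.28 in the 40 cGy, 6.82 ± 0.22 in the 80 cGy and 5.20 ± 0.21 in the 160 cGy hearts (SD). The 160 cGy mean was the lower of the pair of highest doses, and the difference of the 120 cGy group from the mean of the others was -0.70 ± 0.13 (SE, adjusted p = 0.0601). Per2 differed by 0.48 ± 0.11 (SE, adjusted p = 0.217), with 80 cGy hearts the lowest at 5.96 ± 0.10 (SD, n = 5). Among genes outside the clock, Slc41a3 was lower (-0.43 ± 0.11 (SE, adjusted p = 0.243)) and Fmo2 higher (0.39 ± 0.09 (SE, adjusted p = 0.243)). Irs2, an adaptor of the insulin receptor, was 0.46 ± 0.09 (SE, adjusted p = 0.144) against the other doses but 0.04 ± 0.11 against Cs sham, with differences from Cs sham of -0.48 (40 cGy), -0.57 (80 cGy), 0.04 (120 cGy) and -0.20 (160 cGy). Col4a5, a basement membrane collagen, behaved alike in being higher than at the other doses (0.53 ± 0.10 (SE, adjusted p = 0.109)) without passing against Cs sham (adjusted p = 0.55). Rhoj, an endothelial GTPase, was lower in both comparisons (-0.41 ± 0.09 (SE, adjusted p = 0.182) against the other doses and -0.40 ± 0.10 against Cs sham). Egln3, an oxygen-sensing prolyl hydroxylase, Cd59b, an inhibitor of complement, and the predicted genes Gm3336 and Gm10591 were called only against the other doses. With batch 1 arrays only, 0 genes were called by limma in this comparison (1090 of 19505 at an unadjusted p under 0.05), and likewise with batch 2 arrays only (1357). The fit with both batches had 1693 at that unadjusted p.

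The calls against Cs sham depended on the scaling and on single hearts. Without quantile normalization 9 genes were called (5 upregulated, 4 downregulated), and with array medians aligned 35 (20 upregulated, 15 downregulated), beside 60 and 73 with it. Of the 52 called genes named here, 27 kept the call in each of the 10 fits that left out 1 heart, and all 52 kept their direction under every alternative tried.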

How the data were processed

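RNA of 72 hearts had been hybridized to Clariom S Mouse arrays, and the deposited values are log2 RMA signals (background-corrected and normalized by the authors; its version was not given in the sources used here) of each probe set. The array medians still differed, so the 22206 transcript-cluster probe sets were quantile normalized over all 72 arrays. The array annotation gave 1 gene symbol for 19572 probe sets and none for 2634, and of genes with more than 1 (55 genes) the brightest on average was kept, which left 19505 genes. Background was the median of 5222 negative control probe sets per array. The fit was limma 3.58.1 (R 4.3.3) over the 24 Cs arrays with group and processing batch, Benjamini-Hochberg adjusted over all genes, and called at 0.25, or at 0.05 where stated; the study removed batch before its fit. P-values measure the spread between hearts of 1 group and batch. The fit was tested on simulated data.

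Named genes were the 15 largest changes in each direction among called genes above background in at least 1 heart of each group, called members of the lists, the genes the study named as common (12 and 10), and the 10 genes of lowest p in the comparison with the other doses. Members and lists were chosen with earlier results of these data known. Of the list genes, 42 were not measured here. Alternatives changed the batch handling, arrays in the fit, scaling, moderation, filter (log2 above 5 in at least 4 of 10 arrays), threshold and single hearts. Promoter letters came from RefSeq (GRCm38.p6), matched by symbol for 48 of 59 named genes.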

Additional observations from a re-analysis of the deposited data

Results flagged for a closer look

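Among 122 groups of 5 hearts checked (59 named genes and 2 array-level measures in both groups), 7 held a heart farther from the rest than Dixon's critical gap allows, and chance flags about 1 in 20 groups. Sham replicate 4 stood above the other sham hearts in 3 of them, with 10.13 for Dbp (next 9.27), 8.19 for Bhlhe41 (next 7.72) and 6.22 for Kcne1 (next 5.51). Without this heart, 64 genes were called in place of 133. The remaining hearts were sham replicate 3 for Cdkn1a, at 6.74 below the next at 8.15, sham replicate 1 for Tspan4, at 5.96 below the next at 6.36, irradiated replicate 2 for Ciart, at 5.74 below the next at 6.45, and irradiated replicate 5 for Abra, at 8.01 above the next at 7.49.

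Genes were also noted because their level at 120 cGy differed from the mean of the 40, 80 and 160 cGy groups in a direct test (limma, adjusted p under 0.25). These were, as log2 differences, Mtch1 (0.44), Bcl3 (-0.56), Arntl (-0.70), Gm3336 (0.46), Col4a5 (0.53), Cd59b (-0.30), Irs2 (0.46), Gm10591 (-0.36), Rhoj (-0.41) and Egln3 (-0.50), and among the genes named for other reasons Per2 (0.48), Slc41a3 (-0.43) and Fmo2 (0.39).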

How the results depend on the processing

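For the 133 DEGs at Cs 120 cGy against Cs sham, other batch handling gave 32 without a batch term, 79 with batch as a random block, 219 with batch removed first, 15 in batch 1 alone and 5 in batch 2 alone. Fitting only the 2 compared groups gave 45, all 72 arrays 86 and leaving out the 160 cGy group 221. Deposited values gave 9, with the median of all genes at -0.24, and aligned medians 35. A filter on dim genes left 11514 genes and gave 253, and an adjusted p under 0.05 gave 29. Leaving out 1 heart gave 44 to 178, with the largest losses without Cs 120 cGy replicate 4 (44), Cs sham replicate 5 (56), Cs sham replicate 1 (62), Cs sham replicate 4 (64) and Cs 120 cGy replicate 2 (77). Of the 52 called genes named, 6 to 24 lost the call in such a fit and 46 with deposited values. Trend and robust moderation gave 197.

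The 45 genes against the other doses became 2 without a batch term or with batch as a random block, 0 in batch 1 alone, 0 in batch 2 alone, 10 with all 72 arrays, 5 as deposited, 2 with aligned medians, 208 with trend and robust moderation, 276 with the dim filter and 8 to 74 without 1 heart (8 without Cs 120 cGy replicate 2, 9 without replicate 4, 24 without replicate 3 and 74 without replicate 1; 28, 24 and 29 without Cs sham replicates 1, 4 and 5). Replicate 4 at 160 cGy is labelled batch 1 but lies among batch 2 arrays in the first principal component (15, against 4.06 to 26.6 in batch 2); counting it to batch 2, chosen after seeing the data, gave 190 and 15. The cause of these changes was not tested. The difference of Irs2 from Cs sham, 0.04, turned to -0.0542 in batch 1 and -0.172 as deposited, and ran from -0.0283 (without Cs 120 cGy replicate 4) to 0.103 (without Cs sham replicate 4) when 1 heart was left out, with -0.00100 without Cs sham replicate 5.

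Replicate numbers mark no shared animal, and no replicate block beyond batch is implied. Deviations from group means correlated at 0.12 to 0.43 between same-numbered hearts, but at -0.14 to 0.06 when centered within batch. Among all 5 sham hearts of both batches, 0 of 5 irradiated hearts matched their own number best. In batch 2, with 2 hearts per group, the centering made both correlations equal (0.05), so that pair cannot tell whether numbers match. A fit with the replicate block in place of batch gave 156 DEGs.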

Other observations

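DEGs outside the lists and outside the 15 largest changes, chosen for mention after their values were seen, included Tuba8, a tubulin. Tuba8 measured 9.49, 9.40, 9.47, 9.78 and 9.78 in Cs 120 cGy hearts, against 9.77, 9.81, 9.86, 10.39 and 10.25 in Cs sham hearts (log2 difference -0.43 ± 0.09, limma adjusted p = 0.0606). Tuba4a differed by -0.35 ± 0.09 (adjusted p = 0.214) and Tubb4b by -0.38 ± 0.09 (adjusted p = 0.137). Of the 16 alpha and beta tubulin genes measured, these 3 were called, and of the other 13, which were not, 9 had a fitted difference below 0 and 4 above 0; the family was picked for these calls, so the counts are a description. In each of the 3 called genes batch 2 was higher in both groups, and the irradiated hearts were lower within each batch. Vegfa, the endothelial growth factor, measured 9.43, 9.59, 9.58, 9.32 and 9.39 in Cs 120 cGy hearts, against 10.07, 10.09, 9.78, 9.67 and 9.64 in Cs sham hearts, without overlap (-0.39 ± 0.11, adjusted p = 0.234). Rel, a subunit of NF-kappa-B, measured 7.0, 7.37, 7.43, 7.21 and 7.10 in Cs 120 cGy hearts, against 7.54, 7.56, 7.79, 7.74 and 7.89 in Cs sham hearts (-0.49 ± 0.10, adjusted p = 0.0301), and Slc38a2, an amino acid transporter induced by starvation, differed by -0.39 ± 0.09 (adjusted p = 0.0802).

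Upregulated genes in the same class included Ypel3, which measured 8.49, 8.42, 8.32, 8.66 and 8.54 in Cs 120 cGy hearts, against 7.81, 8.10, 8.05, 7.87 and 8.03 in Cs sham hearts (0.51 ± 0.10, adjusted p = 0.0178), and Klhl38, a muscle kelch protein (0.49 ± 0.09, adjusted p = 0.014). Ccl11 (eotaxin) measured 6.23, 7.02, 6.73, 6.57 and 6.61 in Cs 120 cGy hearts, against 5.36, 6.14, 6.15, 6.24 and 5.92 in Cs sham hearts (0.67 ± 0.17, adjusted p = 0.193), and the leukocyte genes C3ar1 (0.52 ± 0.13, adjusted p = 0.163) and Cd53 (0.47 ± 0.12, adjusted p = 0.207) were upregulated while 0 of 11 macrophage markers were called. Nr3c2, the mineralocorticoid receptor, differed by 0.39 ± 0.10 (adjusted p = 0.208).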
